A study of Homo sapiens with 4 samples.

Results

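Interferon-stimulated genes are the genes that cells switch on when interferon, the main antiviral cytokine family, binds its receptors. The 36 described here were chosen by gene name, and each was found at 1 of the 56753 loci of the deposited table. At 34 of these loci the member was the only gene named. IFITM1 shared its locus with IFITM2, and IRF9 shared its locus with RNF31 and a clone-named transcript, so the values of these 2 members are sums over several genes.

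The values come from RNA-seq of 786-O cells, an established human line of clear cell renal cell carcinoma that lacks functional VHL, grown as adherent cultures. Cells stably carrying a control vector (2 libraries) were compared with cells stably carrying PRDM16 lentivirus (2 libraries), to see how PRDM16 overexpression affects the transcriptome. The promoter of the vector, and whether the cells were pools or clones, are not given here. No interferon treatment is named in the labels for either group. The labels do not say that replicates were separate cultures, and the p-values below describe the scatter among these 4 libraries alone, part of which may be technical.

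Interferon of type I or III acts through its receptors and the kinases JAK1 and TYK2, which activate STAT proteins. A complex that holds STAT2 and IRF9 then binds the interferon-stimulated response element, a short repeat of the letters GAAA, in the promoters of its targets. Many targets act against viruses, by sensing or degrading viral RNA or by blocking entry and release, and a low level is made in many cells without added interferon. PRDM16 is a zinc finger regulator of transcription, and in fat cells it has been reported to repress genes induced by type I interferon.

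The libraries were first checked against their labels. PRDM16 itself was 0.0157 and 0.234 FPKM in control vector 1 and 2 and 1226 and 1146 FPKM in PRDM16 cells 1 and 2, a value that sums endogenous and vector-derived transcript (FPKM are fragments scaled to transcript length and library size). Of 8 markers of renal carcinoma cells, the 6 measured alone all had a mean of at least 1 FPKM, with PAX8 averaging 205 FPKM in control cells and 179.8 FPKM in PRDM16 cells. The leukocyte markers measured alone (9) summed to between 0.232 and 0.334 FPKM per library, with 4 of them, including CD3E, CLEC4C and HLA-DRA, listed at 0 throughout. Between 23138 and 24490 loci were above 0 per library, and the lowest values placed the other 3 libraries at 1.17 to 1.39 times the depth of control vector 1. Control vector 2 stood apart, being the highest or lowest library at 72.8% of 13246 tested loci, against 30.4% to 55.2% for each of the others.

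The promoters of these genes are shown first, since the response element is what most of them have in common apart from their name. RefSeq promoter windows (GRCh38.p14, 250 bases before to 50 after the start) were found for 30 of the 36 members, and none was found for IRF7, USP18, IFIT2, OAS2, OASL or MX2. The letters GAAA, any 2 bases and GAAA again, on either strand, occurred in a window of 20 of these 30 genes and in 24 of their 41 windows (58.5%), against 3.57% of 35116 windows of the same length. Tandem copies that share a GAAA were counted separately. The letters TTC, any 3 bases and GAA, the core of a site for STAT proteins, occurred in 10 of the 41 windows (24.4%), against 7.66% of all windows. A match is a description of the letters and not a measured binding site. The stretches below lie upstream of the RefSeq start, read 5′ to 3′ on the gene's strand, with that motif or its reverse complement (TTTC, any 2 bases, TTTC) in capitals. They belong to members treated in detail below, namely IFITM1 (chr11:313970-314039, plus strand), HERC5 (chr4:88456964-88457084, plus strand), IFI44 (chr1:78649741-78649788, plus strand), IFITM3 (chr11:320861-320942, minus strand), OAS3 (chr12:112938301-112938473, plus strand) and IFI6 (chr1:27672246-27672378, minus strand).
IFITM1: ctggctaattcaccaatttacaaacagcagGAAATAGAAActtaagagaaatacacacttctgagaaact
HERC5: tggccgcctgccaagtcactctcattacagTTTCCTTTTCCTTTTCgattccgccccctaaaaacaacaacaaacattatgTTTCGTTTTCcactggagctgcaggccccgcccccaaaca
IFI44: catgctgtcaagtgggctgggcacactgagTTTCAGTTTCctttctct
IFITM3: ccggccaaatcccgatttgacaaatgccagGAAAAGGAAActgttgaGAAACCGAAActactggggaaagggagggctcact
OAS3: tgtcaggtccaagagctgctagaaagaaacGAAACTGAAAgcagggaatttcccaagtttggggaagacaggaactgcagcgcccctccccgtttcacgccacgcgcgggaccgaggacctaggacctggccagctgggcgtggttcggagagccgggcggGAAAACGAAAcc
IFI6: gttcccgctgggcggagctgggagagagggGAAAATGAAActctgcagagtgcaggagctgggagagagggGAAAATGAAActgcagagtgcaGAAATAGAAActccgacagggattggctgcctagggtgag
HERC5 and IFI6 carried 3 matches each in these stretches, IFITM3 and OAS3 carried 2, and IFITM1 and IFI44 carried 1. In IFITM1 a further match began 6 bases before the RefSeq start and is not shown. By GENCODE coordinates the stretches of IFITM1 and IFITM3, and part of that of OAS3, lie inside the annotated gene. Among the genes with stretches shown, HERC5 and IFI44 were higher in both PRDM16 libraries, and IFITM3 and the joint locus of IFITM1 and IFITM2 were lower. None of these differences passed the test given below. Of the 31 tested members, 4 lay higher and 4 lower without overlap, against 21.1% and 20.3% of all tested loci.

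No interferon-stimulated gene passed the test between PRDM16 and control vector cells. Of the 36 members, 31 had a mean of at least 1 FPKM and were tested, and limma called 0 of them at an adjusted p under 0.05, against 0.0226% of all tested loci (3 of 13246). Their adjusted p ran from 0.689 to 0.988, and 2 members had an unadjusted p under 0.05, against 6.12% of all loci. The median log2 difference was -0.07, with 22 members lower and 9 higher on the means. Over all tested loci it was 0.00399, with 6529 lower and 6717 higher. Both PRDM16 libraries exceeded both control libraries for 4 members and were below them for 4, against 21.1% and 20.3% of all loci. For the remaining 23 members the groups overlapped. Changes here are differences of log2(FPKM + 1), a scale that compresses differences at low levels. With 2 libraries per group an exact permutation test cannot go below p = 0.333, so only model p-values are given.

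The precision among these 4 libraries was enough to bound many of these differences on the scale of log2(FPKM + 1). Like the p-values, the intervals rest on the scatter among these libraries alone, part of which may be technical. The 95% interval of the log2 difference, not adjusted for the number of genes, lay between -1 and 1 for 25 of the 31 members. The other 6 were XAF1, IRF1, STAT2, ISG20, IFI6 and OAS3. Among all tested loci the share was larger, at 12298 of 13246. For low genes the scale compresses the interval, so it does not bound the fold change of their RNA. For 25 of 31 members (80.6%) the difference between group means was smaller than the larger of the within-group differences, as it was for 74.0% of all tested loci. The median difference between the 2 control vector libraries was 0.29 for the members and 0.19 for all loci, while between the PRDM16 libraries it was 0.09 and 0.10. In bulk RNA, fewer cells expressing a gene and less RNA per cell cannot be told apart.

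**Figure D1:**
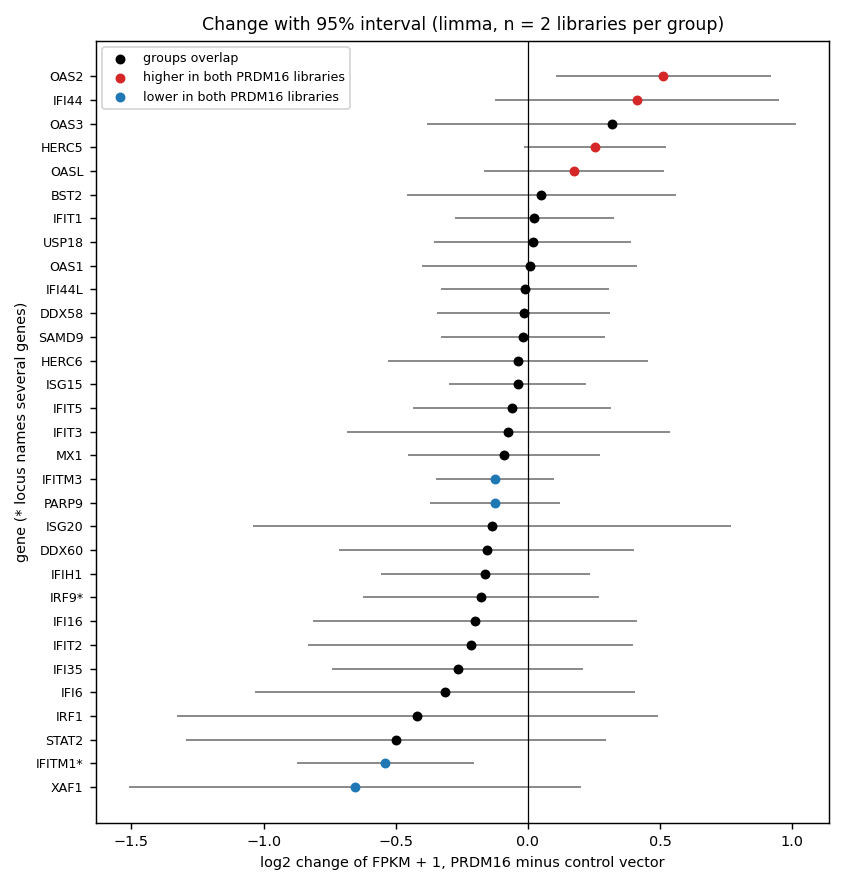
Log2 difference of FPKM + 1 (PRDM16 minus control vector) for the 31 tested genes, with points for the limma estimate and lines for its 95% interval, from 2 libraries per group. Estimates run from -0.65 (XAF1) to 0.51 (OAS2), and only the intervals of IFITM1 and OAS2 lie clear of 0.

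The transcription factors that drive these genes were measured at moderate levels, and their groups overlapped. IRF1, a factor that interferon gamma induces, was 42.0 and 81.6 FPKM in the control vector libraries and 49.8 and 38.2 FPKM in the PRDM16 libraries. STAT2, the DNA-binding complex's transactivating subunit, was 13.1 and 22.3 FPKM against 14.2 and 9.81 FPKM. The locus naming IRF9, the subunit that recognises the response element, was 31.4 and 42.8 FPKM against 33.4 and 31.3 FPKM. All 3 were highest in control vector 2. Their log2 differences were -0.42 (SE 0.35), -0.50 (SE 0.30) and -0.18 (SE 0.17), with limma adjusted p of 0.703, 0.689 and 0.727. Without control vector 2 the changes were 0.05 for IRF1, -0.14 for STAT2 and 0.04 for IRF9. Leaving out control vector 1 instead gave -0.89, -0.86 and -0.40.

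IRF7, the factor that amplifies interferon production, was listed at 0 in all 4 libraries. A listed 0 may be a failed estimate in this table. The loci of its neighbours on chromosome 11, PHRF1 (576486 to 612222) and CDHR5 (616565 to 626078), were also listed at 0 in all 4 libraries, while DEAF1 was 16.8 and 17.5 FPKM against 15.6 and 12.8 FPKM. All 11 loci naming mitochondrially encoded genes, which every cell uses, were listed at 0 as well. IFI27, a gene of a mitochondrial membrane protein that interferon strongly induces, was the other member listed at 0 throughout, together with its neighbours on chromosome 14, IFI27L1, IFI27L2 and the RNA helicase gene DDX24. Whether IRF7 and IFI27 were silent or not estimated cannot be told apart.

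Sensors of foreign nucleic acid, which start the response, were lower on the mean in all 4 cases and overlapped between groups in all 4. IFI16, a sensor of DNA, was 32.8 and 52.2 FPKM in control cells and 36.7 and 35.1 FPKM in PRDM16 cells. IFIH1, which encodes the sensor MDA5 of long double-stranded RNA, was 4.27 and 5.55 FPKM against 4.41 and 4.10 FPKM. DDX58, the gene of the RNA sensor RIG-I, was 5.06 and 6.02 FPKM against 5.60 and 5.30 FPKM. Control vector 2 was the highest library in each of these genes, and for IFI16 and IFIH1, but not DDX58, it lay farther from the next library than the other 3 lay from each other. DDX60, a helicase linked to RIG-I signalling, was 3.15 and 4.77 FPKM against 3.81 and 3.005 FPKM. The log2 differences ran from -0.20 (IFI16, SE 0.23, limma adjusted p = 0.761) to -0.02 (DDX58, SE 0.12). Without control vector 2, IFI16, DDX60 and DDX58 were higher in PRDM16, at 0.13, 0.08 and 0.09, and IFIH1 was at -0.00385. Leaving out control vector 1 instead gave -0.53, -0.39, -0.12 and -0.32 for these genes in the same order.

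In the ISG15 system a ubiquitin-like protein is joined to other proteins, and HERC6 is grouped with it here. The groups overlapped in 3 of these 4 genes, as they did at 7756 of 13246 tested loci. ISG15, the modifier itself, was 59.5 and 53.2 FPKM in control cells and 54.8 and 54.6 FPKM in PRDM16 cells, which is a log2 difference of -0.04 (SE 0.10, limma adjusted p = 0.898) with a 95% interval from -0.30 to 0.22. USP18, the protease that removes ISG15 and restrains receptor signalling, was 1.78 and 1.64 FPKM against 1.68 and 1.80 FPKM. HERC6 was 8.80 and 8.05 FPKM against 9.81 and 6.77 FPKM, and its groups overlapped too. HERC5, the main human ligase for ISG15, differed from these in that both PRDM16 libraries exceeded both control libraries. Its values were 6.9996 and 6.46 FPKM against 8.03 and 8.41 FPKM, which is a log2 difference of 0.25 (SE 0.10) that missed the threshold (limma adjusted p = 0.689). HERC5 and HERC6 are neighbours on chromosome 4 (88457117 to 88506163 and 88378739 to 88443111).

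IFIT proteins bind RNA that lacks the marks of the cell's own transcripts, and their genes lie together on chromosome 10 (89283694 to 89421001). IFIT1, which blocks translation of such RNA, was 11.1 and 10.03 FPKM in control cells and 11.4 and 10.1 FPKM in PRDM16 cells. IFIT3, its partner, was 11.9 and 18.5 FPKM against 15.4 and 12.8 FPKM. IFIT2 was 3.99 and 6.65 FPKM against 4.59 and 4.06 FPKM. Control vector 2 was thus the highest library for IFIT2 and IFIT3 but the lowest for IFIT1. IFIT5 was 4.35 and 5.54 FPKM against 4.60 and 4.75 FPKM. The groups overlapped in all 4 genes, with log2 differences from -0.22 (IFIT2, SE 0.23) to 0.02 (IFIT1, SE 0.11).

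The OAS family, enzymes that make the 2-5A messenger which activates RNase L, and its relative OASL were higher on the mean in all 4 genes. OAS2 was 1.61 and 1.28 FPKM in control cells and 2.63 and 2.33 FPKM in PRDM16 cells, so the groups did not overlap. Its means were 1.44 ± 0.235 and 2.48 ± 0.212 FPKM (SD, n = 2), a ratio of 1.72. The log2 difference was 0.51 (SE 0.15, 95% interval 0.11 to 0.92), the highest among the members, and missed the threshold over all loci (limma adjusted p = 0.689). OASL, which lacks the enzyme's activity and enhances RIG-I signalling, was 2.003 and 2.08 FPKM against 2.48 and 2.39 FPKM, again without overlap. Its log2 difference was 0.18 (SE 0.13, limma adjusted p = 0.690). The other two overlapped between groups. OAS3 was 24.3 and 14.0 FPKM against 22.9 and 23.7 FPKM, low only in control vector 2. Its log2 difference of 0.32 (SE 0.26, limma adjusted p = 0.703) was -0.06 without that library and 0.70 without control vector 1. OAS1 was 6.39 and 6.74 FPKM against 7.61 and 5.72 FPKM, with a log2 difference of only 0.0068 (SE 0.15, limma adjusted p = 0.988). OAS1, OAS3 and OAS2 lie next to each other on chromosome 12 (112906777 to 113011723), and OASL lies elsewhere on that chromosome.

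**Figure D2:**
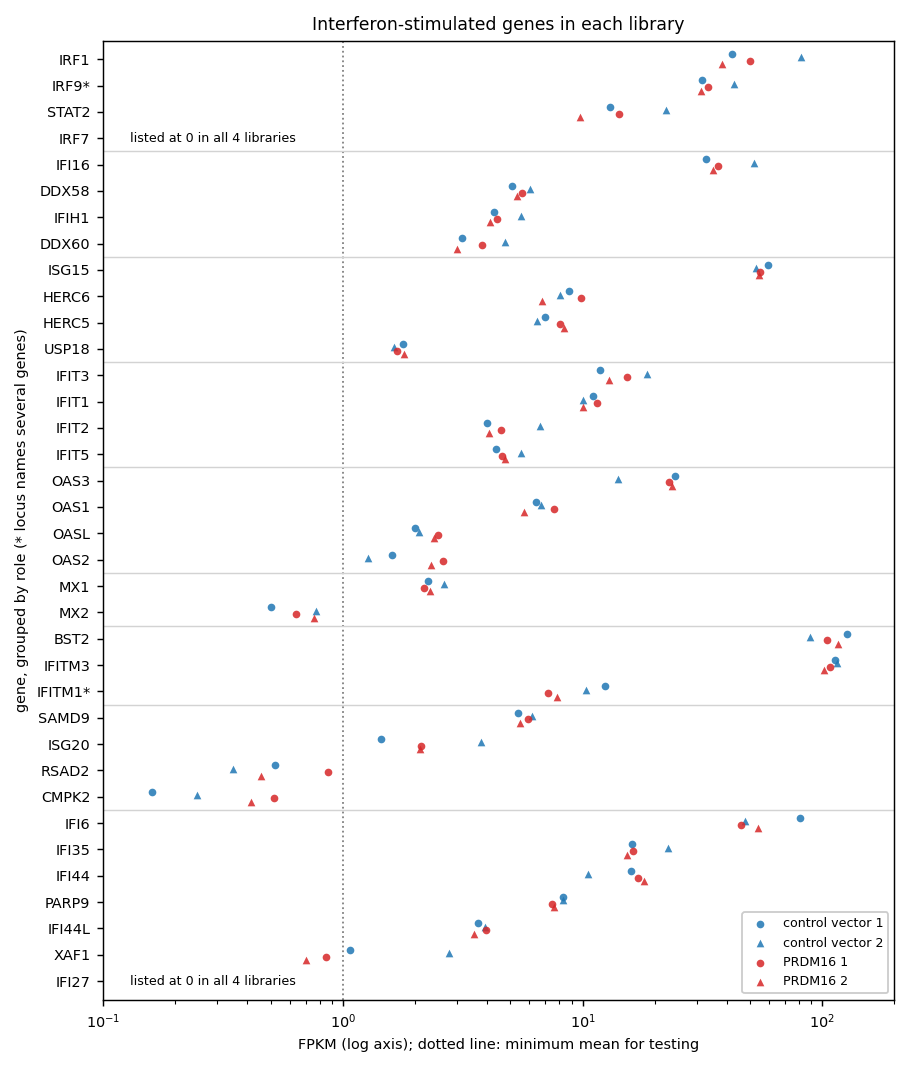
FPKM (log axis) of each of the 36 genes in the 4 libraries, grouped by role, with circles for replicate 1 and triangles for replicate 2, blue for control vector and red for PRDM16. Most red and blue points interleave, and the blue triangle (control vector 2) lies to the right for IRF1, STAT2, IFI16, ISG20 and XAF1 and to the left for OAS3 and IFI44.

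Membrane proteins that restrict viral entry and release included the most abundant members. BST2, or tetherin, which holds budding virions at the cell surface, was 127 and 89.3 FPKM in control cells and 105 and 117 FPKM in PRDM16 cells, within overlapping libraries (log2 difference 0.05, SE 0.19, limma adjusted p = 0.933). IFITM3, which blocks fusion of viruses in endosomes, was 113 and 115 FPKM against 107 and 102 FPKM. Both PRDM16 libraries lay below both control libraries for IFITM3, by a log2 difference of -0.12 (SE 0.09, limma adjusted p = 0.690). The mean levels of BST2 and IFITM3 over the 4 libraries, 109.5 and 109.1 FPKM, were the highest of the list and did not differ beyond their spread. The next highest were IFI6, ISG15 and IRF1, at 57.1, 55.5 and 52.9 FPKM, and these too lay within their spread of each other.

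The joint locus of IFITM1 and IFITM2 had the smallest p of all members. It was 12.5 and 10.3 FPKM in control cells and 7.21 and 7.79 FPKM in PRDM16 cells, so both PRDM16 libraries were lower. The means were 11.4 ± 1.51 and 7.50 ± 0.412 FPKM (SD, n = 2), 1.52-fold lower. The log2 difference of -0.54 (SE 0.13, 95% interval -0.88 to -0.20) missed the threshold over all loci (limma adjusted p = 0.689). It was between -0.66 and -0.42 when each library was left out in turn. IFITM2 is annotated at 307631 to 315272 on chromosome 11, across the whole of IFITM1 (313506 to 315272), and the IFITM genes are similar in sequence, so the share of each in this value is uncertain.

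MX proteins, GTPases that trap viral nucleocapsids, were low. MX1 was 2.26 and 2.65 FPKM in control cells and 2.18 and 2.31 FPKM in PRDM16 cells. Its log2 difference of -0.09 (SE 0.14) was -0.0078 without control vector 2 and -0.17 without control vector 1. MX2, a restriction factor of retroviruses, was below the minimum for testing at 0.503 and 0.771 FPKM against 0.638 and 0.756 FPKM. Effectors that act on nucleotides and RNA were also low. ISG20, an exonuclease, was 1.44 and 3.77 FPKM against 2.11 and 2.098 FPKM, so the control vector libraries lay on either side of the PRDM16 libraries. SAMD9, a growth and virus restriction factor, was 5.40 and 6.18 FPKM against 5.92 and 5.46 FPKM. RSAD2, or viperin, which makes a chain-terminating nucleotide, was not tested, at 0.519 and 0.348 FPKM against 0.866 and 0.455 FPKM. Its neighbour CMPK2, a mitochondrial nucleotide kinase, was 0.160 and 0.247 FPKM against 0.517 and 0.413 FPKM, higher in both PRDM16 libraries at levels too low to test. Their annotations overlap on chromosome 2 (6865806 to 6898239 and 6840570 to 6866635), and whether the libraries kept strand is not stated in the labels.

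The remaining members have diverse or less settled roles. Of the 6, 5 were lower on the mean and 1, IFI44, was higher, where 6529 of 13246 tested loci were lower. XAF1, an antagonist of the apoptosis inhibitor XIAP, was 1.07 and 2.76 FPKM in control cells and 0.850 and 0.701 FPKM in PRDM16 cells. Although both PRDM16 libraries were lower, its log2 difference of -0.65 (SE 0.32, limma adjusted p = 0.689) was -0.22 without control vector 2. Without control vector 1 it was -1.08. IFI44, a cytoplasmic protein, was 15.9 and 10.5 FPKM against 17.0 and 18.1 FPKM. The log2 difference of IFI44 was 0.41 (SE 0.20, limma adjusted p = 0.689), 0.14 without control vector 2 and 0.69 without control vector 1. Its neighbour on chromosome 1, IFI44L, was 3.66 and 3.90 FPKM against 3.96 and 3.53 FPKM, with overlap. IFI6, a gene of a mitochondrial protein that protects cells from apoptosis, was 80.8 and 47.6 FPKM against 45.8 and 54.0 FPKM. There control vector 1 was the library apart, and without it the log2 difference was 0.06 in place of -0.31 (SE 0.27, limma adjusted p = 0.711). Without control vector 2 that difference was -0.69. IFI35 was 16.1 and 22.7 FPKM against 16.2 and 15.3 FPKM, highest in control vector 2. Its log2 difference of -0.27 (SE 0.18, limma adjusted p = 0.690) was -0.03 without that library and -0.50 without control vector 1. PARP9, an ADP-ribosyltransferase that works with the ligase DTX3L, was 8.31 and 8.29 FPKM against 7.48 and 7.59 FPKM. These libraries agreed closely within groups and did not overlap, and the log2 difference of -0.12 (SE 0.09) missed the threshold (limma adjusted p = 0.693).

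Control vector 2 was the highest of the 4 libraries for 16 of the 31 tested members (51.6%), against 33.9% of all tested loci. Control vector 1 was the highest for 6 (19.4%, all loci 22.7%) and PRDM16 1 for 6 (19.4%, all loci 16.2%). PRDM16 2 was the highest for 3 (9.68%, all loci 27.2%) and the lowest for 11 (35.5%, all loci 28.0%). The control vector libraries were each lowest for 8 (25.8%, all loci 18.9% for control vector 1 and 38.9% for control vector 2). PRDM16 1 was the lowest for 4 (12.9%, all loci 14.2%). The median deviation of the members from their 4-library mean was 0.09 in control vector 2, -0.08 in control vector 1, -0.02 in PRDM16 1 and -0.07 in PRDM16 2. Without control vector 2, 15 of the 31 members changed direction, 16 were higher and 15 lower, and the median log2 difference was 0.03. Of the 22 members lower in the full comparison, 11 were then higher, and of the 9 higher members 4 were then lower. Over all tested loci 6461 were higher and 6756 lower without it, with a median of -0.00374. How many of all loci changed direction was not counted, so the members' number has no background. Without control vector 1 the members' median was -0.12, with 11 higher and 20 lower. Leukocyte markers were near 0 in both control libraries, at a sum of 0.232 FPKM in control vector 2 and 0.251 FPKM in control vector 1. Of the 4 libraries, control vector 2 had the most loci above 0 (24490) and the lowest FPKM sum over all loci (556213). Its depth was the greatest, at 1.39 times that of control vector 1. What sets control vector 2 apart was not tested. The summed FPKM of the tested members was 662 and 673 in control cells and 614 and 599.6 in PRDM16 cells, a sum that the most abundant members dominate.

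**Figure D3:**
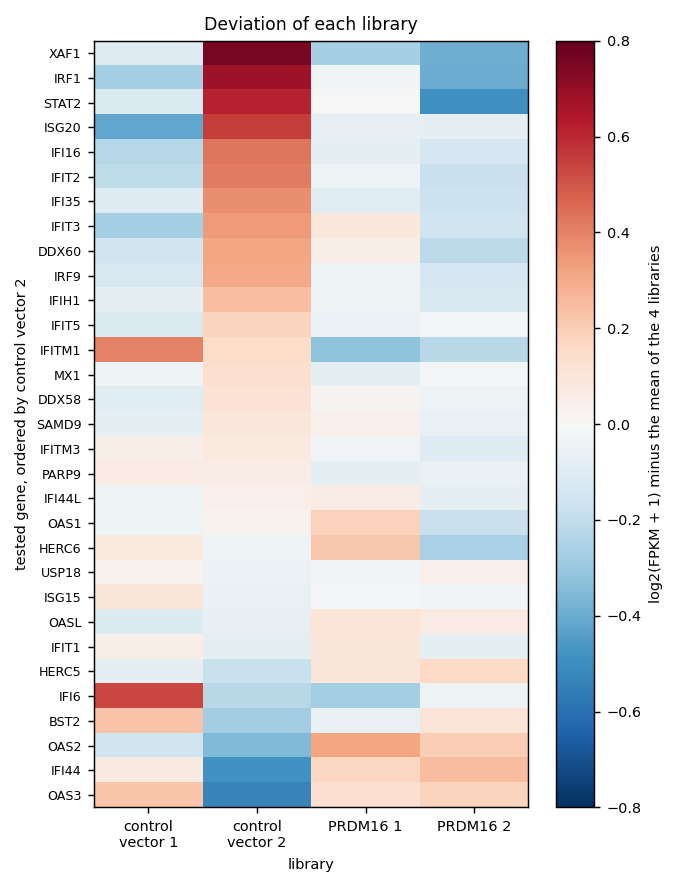
Deviation of log2(FPKM + 1) from the mean of the 4 libraries, for the 31 tested genes (rows, ordered by control vector 2) and the 4 libraries (columns), with red above and blue below the mean. The cells farthest from the mean are those of XAF1, IRF1, STAT2 and ISG20 (red) and OAS3 (blue) in the control vector 2 column, followed by IFI6 in control vector 1 (red) and STAT2 in PRDM16 2 (blue).

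**Figure D4:**
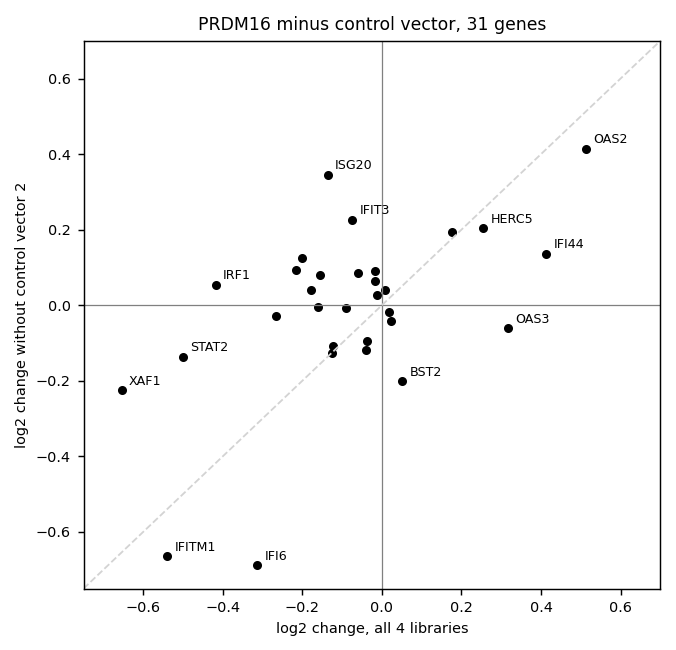
Log2 difference of each tested gene with all 4 libraries (horizontal) and without control vector 2 (vertical), with a dashed line of equal values. Of the 31 genes, 15 lie on opposite sides of 0 in the 2 comparisons, among them IRF1, ISG20 and OAS3, while OAS2, HERC5 and IFITM1 keep their direction.

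Members with and without the response element letters were set side by side as a description. Of 18 tested members with the GAAA repeat in a RefSeq window, 13 were lower on the mean, with a median log2 difference of -0.07. Of 9 without it, 8 were lower, with a median of -0.20. Over all tested loci, 6529 of 13246 were lower. Tested members with no window are in neither group, namely USP18, IFIT2, OAS2 and OASL, at 0.02, -0.22, 0.51 and 0.18. Control vector 2 was the highest library for 8 of the 18 and for 7 of the 9.

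Other genes of the interferon pathway were taken from a list of 80, of which IFITM2 was measured only in the locus of IFITM1. The other 79 lay at 78 loci, of which 60 were tested, and limma called 0, with 4 at an unadjusted p under 0.05. On the means 40 were lower and 20 higher (all tested loci 6529 and 6717), with a median log2 difference of -0.10. Both PRDM16 libraries were below both control libraries for 24 and above for 6 of the 60, where all tested loci gave 20.3% and 21.1%. PRDM16 2 was the lowest library for 29 of the 60 (48.3%, against 28.0% of all tested loci) and control vector 2 the highest for 34 (56.7%, against 33.9%). Without control vector 2 the median change was -0.00345, with 32 lower and 28 higher. Without control vector 1 it was -0.19, with 41 lower and 19 higher.

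No ligand gene reached the minimum for testing. Of 9, 7 were listed at 0 in all 4 libraries, which in this table may be a failed estimate, while IFNB1 was at most 0.0329 FPKM, and IFNE was between 0.0859 and 0.186 FPKM. The receptor gene IFNAR1 was 27.6 and 26.1 FPKM in control cells and 25.5 and 23.4 FPKM in PRDM16 cells. The locus that names the second chain, IFNAR2, together with IL10RB and AP000295.9 was 42.8 and 45.9 FPKM against 39.8 and 39.04 FPKM. Both were slightly lower in both PRDM16 libraries (log2 differences -0.13 and -0.16, limma adjusted p = 0.690 and 0.689). The kinase gene JAK1 was 163 and 172 FPKM against 148 and 141 FPKM, again lower in both PRDM16 libraries. Its log2 difference was -0.21 (SE 0.08, limma adjusted p = 0.689). TYK2 was 32.1 and 32.5 FPKM against 34.5 and 29.8 FPKM, with overlap (log2 difference -0.01).

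IRF3, which drives interferon production, was 58.1 and 42.8 FPKM in control cells and 58.0 and 58.7 FPKM in PRDM16 cells, low only in control vector 2. Among the 6 other genes with the smallest p, the lipoprotein gene APOL1 had the smallest. It was 346 and 359 FPKM against 266 and 278 FPKM, which is a log2 difference of -0.37 (SE 0.08) that missed the threshold (limma adjusted p = 0.689). TNFSF10, the gene of the death ligand TRAIL, was 197 and 206 FPKM against 159.5 and 164 FPKM, also lower in both PRDM16 libraries. Its log2 difference was -0.32 (SE 0.08, limma adjusted p = 0.689). CGAS, the sensor of cytosolic DNA, was instead higher in both PRDM16 libraries, with 7.12 and 5.86 FPKM against 9.16 and 9.48 FPKM, which is a log2 difference of 0.47 (SE 0.12, limma adjusted p = 0.689). The restriction factor genes TRIM22 (in a locus also naming OR56B1) and TRIM5, with APOL2, completed the 6, at log2 differences of -0.63, -0.23 and -0.27, each lower in both PRDM16 libraries. The change of TRIM22 was -0.34 without PRDM16 2 and -0.91 without PRDM16 1, and that of APOL2 was -0.18 without control vector 2.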

How the data were processed

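RNA-seq libraries of total RNA from 786-O cells were analysed, 2 with a control vector and 2 with PRDM16 lentivirus, grouped by the vector in the labels. The authors deposited 1 value per locus and library, taken here as FPKM. The unit is not named in the header and rests on the tools listed and on fractional values whose library sums ran from 556213 to 574003. The submitters' processing notes list Trim Galore, TopHat2 2.1.0, Cufflinks 2.2.1 and Cuffdiff, with hg38 as the build; annotation, filters, scaling and strand are not given in the sources. FPKM hide the read numbers, so no absolute depth or counting interval can be stated.

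Members were matched to any locus whose comma-separated names included the symbol. The 13246 loci averaging 1 FPKM or more across all libraries were tested on log2(FPKM + 1) in R 4.3.3 with limma 3.58.1, using a variance trend, a two-sided moderated test and Benjamini-Hochberg adjustment over all tested loci at 0.05. Alternatives covered pseudocounts, filters, scalings, variance models, the replicate number as a block, single-name loci and leaving out each library; count-based tests do not apply to FPKM and were not run. All 36 members are named. The 10 with the smallest p and the 8 with the highest level were to be given full statistics, and of the other pathway genes 6 preset ones, of which 1 is not reported here, and the 6 others with the smallest p were named. The members and lists were chosen with earlier results of these data known. Gene coordinates are from GENCODE release 29 on GRCh38, the assembly hg38 refers to, and promoter windows from RefSeq on GRCh38.p14. Tables and plots used Python 3.11.15, pandas 2.3.3 and matplotlib 3.10.9.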

Additional observations from a re-analysis of the deposited data

How the results depend on the processing

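No interferon-stimulated gene and no other pathway gene was called under any of the 15 alternatives run. The lowest adjusted p of a member was 0.13, without control vector replicate 1, and otherwise lay at 0.648 or above; leaving out a library leaves the spread of the other group as most of the error. The number of called loci was 3, against 5 at pseudocount 0.1, 1 with no filter, 6 with no variance trend, 5 with robust variances and 16 to 39 with 1 library left out. Equal replicate numbers are not said to pair the samples (correlation of same-numbered deviations -0.06 over all tested loci), and with the replicate block 5 loci were called and 0 members. The members' median change ran from -0.14 to 0.03 with 1 library left out, and was above 0, at 0.026, only without control vector replicate 2. Under a minimum mean of 5 FPKM (20 members tested), 2 members lay higher and 3 lower in both PRDM16 libraries, against 23.5% and 18.6% of 9661 loci. With 1 library left out, where fewer libraries make overlap rarer, the groups did not overlap for 5 to 11 members higher (16.1% to 35.5%, all loci 30.1% to 43.9%) and 6 to 18 lower (19.4% to 58.1%, all loci 27.6% to 40.7%); the 18 were without control vector replicate 1. Quantile normalization turned DDX58, SAMD9 and IFI44L upward, at 0.019, 0.024 and 0.023. Of the 31 members, 12 kept their direction in every setting that tested them (HERC5, IFI35, IFI44, IFIH1, IFITM1, IFITM3, MX1, OAS2, OASL, PARP9, STAT2 and XAF1). With each library left out in turn, the log2 changes of the genes that crossed 0 ranged as follows: BST2 -0.20 to 0.30, DDX58 -0.12 to 0.0899, DDX60 -0.39 to 0.0807, HERC6 -0.28 to 0.20, IFI16 -0.53 to 0.13, IFI44L -0.0756 to 0.0534, IFI6 -0.69 to 0.0624, IFIT1 -0.0604 to 0.11, IFIT2 -0.52 to 0.092, IFIT3 -0.37 to 0.23, IFIT5 -0.21 to 0.0851, IRF1 -0.89 to 0.0541, IRF9 -0.40 to 0.0392, ISG15 -0.12 to 0.0409, ISG20 -0.62 to 0.35, OAS1 -0.17 to 0.19, OAS3 -0.0611 to 0.70, SAMD9 -0.10 to 0.0651, TYK2 -0.11 to 0.0927 and USP18 -0.0187 to 0.0554. PRDM16 was called throughout, at 9.91 to 10.19 with 1 library left out. Changes of low genes are the most limited, since their FPKM rest on few reads and are compressed by the pseudocount.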
